A study of Mus musculus with 9 samples.

Results

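The BCL2 family sets whether a cell keeps or loses the integrity of its mitochondrial outer membrane. Here 10 of its genes were followed in mouse peritoneal macrophages, chosen by their array gene names from 24451 named genes: the survival genes Bcl2, Bcl2l1 and Mcl1, the effectors Bax and Bak1, and the BH3-only genes Bid, Bcl2l11, Bbc3, Pmaip1 and Bmf. The arrays carried 13 probes for them, and all 10 genes were well above background on all 9 arrays and were tested. Bcl2l1 was the member that differed most: its signal was 2.64-fold lower on its brighter probe in macrophages that had migrated than in macrophages cultured alone, and its other probe was lower too. Bcl2l11 was 1.65-fold higher in the same comparison, while Bid and Bbc3 were lower and Bmf higher in macrophages co-cultured with carcinoma cells. The differences of Bcl2l11, Bid, Bbc3 and Bmf each missed the threshold on leaving out some single array. Bid and Bbc3 also missed it under another scaling of the arrays. The co-cultured group cannot be told apart from its slide.

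As background, BCL2-type proteins are guardians that bind and hold the pore-forming effectors BAX and BAK. BH3-only proteins, each induced or released by its own kind of stress, occupy the guardians' groove or act on the effectors directly. Once BAX or BAK opens the outer membrane, cytochrome c reaches the cytosol and starts the caspase cascade through APAF1. In macrophages, the guardians MCL1, BCL-XL (the product of Bcl2l1) and BCL2A1 are known for their part in survival during activation.

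Peritoneal macrophages of male mice were grown alone in regular medium for 24 h (Ctrl), or together with CT-26, a mouse colon carcinoma cell line, in the lower chamber of a Transwell for 24 h (T). Macrophages recovered from the upper chamber of the co-culture, described as migratory, formed the third group (M), for which the sources used here give no time. All groups were sorted as CD45+ F4/80+ cells before RNA extraction, and each had 3 one-colour Agilent arrays. The sources used here give no strain, age or genotype. The cell type field calls the T samples migratory macrophages, against their titles and the protocol, and the groups here follow the titles. The labels do not say whether a group's arrays stem from different animals or cultures; the p-values therefore rest on a spread between samples that may be technical.

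Probes well above background made up 60.5% to 78.6% of all probes per array, no spot was flagged as saturated, and the number of arrays limits the precision. Unscaled signals of members reached 86062 for Bax, 68699 for Bbc3 and 66946 for the brighter Bcl2l1 probe. Those of the brighter Mcl1 probe ran from 43137 to 63884, and those of its other probe from 9231 to 42565. Whether signals this high still rise evenly with the amount of RNA was not tested. All T arrays lay on one slide and all Ctrl and M arrays on another, so group T cannot be told apart from its slide, whereas M against Ctrl lies within one slide. Replicate spots of one probe varied more on M1 (median CV 9.91%) and M3 (15.2%) than on the other arrays (3.41% to 6.08%). Over all tested genes, Ctrl3 correlated less with Ctrl1 (r = 0.969) than with M2 (0.977), M1 (0.971) or T1 (0.970), and at 0.981 with Ctrl2, while Ctrl1 and Ctrl2 correlated at 0.991. Without Ctrl3, the members called in M against Ctrl stayed called, Bcl2l1 at -1.35 (adjusted p = 0.000802) and Bcl2l11 at 0.87 (0.00628). Bmf (0.88, adjusted p = 0.00165) and Bid (-0.50, 0.0368) also stayed called in T against Ctrl, and Bbc3 did not. Both genes of the sorted surface proteins, Ptprc for CD45 and Adgre1 for F4/80, were detected on all arrays. Adgre1 was 7.26-fold higher in M than in Ctrl (adjusted p = 1.38e-05), Ptprc was 1.74-fold higher (adjusted p = 0.0224), and neither passed in T against Ctrl. The summed level of the 11 tested of 13 macrophage markers, in multiples of the array's 75th percentile, was 200.4 to 240.4 in Ctrl, 162.1 to 220.4 in T and 189.5 to 267 in M. Of these, 3 were called higher in T against Ctrl, 4 higher in M against Ctrl, and 3 higher and 1 lower in M against T. The lower one, Mertk, was 6.70-fold higher in T than in Ctrl (adjusted p = 9.35e-06) and 4.79-fold lower in M than in T (adjusted p = 3.11e-05). The sum of the 13 tested of 17 carcinoma epithelium markers was 4.71 to 6.65 in Ctrl, 4.54 to 4.83 in T and 4.69 to 5.56 in M. Of these markers 4 were called higher and 5 lower in T against Ctrl, and 1 higher and 1 lower in M against Ctrl. In M against T 3 of them were called higher and 2 lower. Krt19 was 12.4-fold higher in T than in Ctrl (adjusted p = 1.13e-05), Elf3 was 2.76-fold higher (adjusted p = 0.000258), and Epcam was 3.04-fold lower (adjusted p = 0.00223). In M, where 1 of 3 arrays measured it above background, Krt19 was 20.0-fold lower than in T (adjusted p = 4.10e-06). Areg was 12.8-fold higher in T (adjusted p = 1.17e-06) and 45.3-fold higher in M (adjusted p = 7.95e-08) than in Ctrl, where 2 of 3 arrays measured it above background. The summed levels of B cell markers (7 of 10 tested) ran from 8.52 to 18.9 over the arrays, those of T and NK cells (10 of 14) from 3.37 to 4.64, those of granulocytes and mast cells (11 of 15) from 15.6 to 27.3, and those of mesothelium and fibroblasts (6 of 11) from 0.256 to 1.06. In T against Ctrl, 2 T and NK cell markers were called higher and 5 lower, no B cell marker higher and 4 lower, 1 granulocyte and mast cell marker higher and 5 lower, and 1 mesothelium and fibroblast marker higher and 2 lower. In M against Ctrl, 1 T and NK cell marker was called higher, 2 granulocyte and mast cell markers higher and 1 lower, and none of the other 2 lists. That T and NK cell marker, Cd3d, was well above background on 0 of 3 arrays in M and in Ctrl. In M against T, 2 T and NK cell markers were called higher, and 2 B cell markers higher and 2 lower. Gzma, among these T and NK cell markers, was well above background on 1 M array and 0 T arrays. In that comparison 3 granulocyte and mast cell markers were called higher, and 1 mesothelium and fibroblast marker lower. Kit, among these granulocyte and mast cell markers, was well above background on 0 M and 0 T arrays. Of all genes, 17.5% were called higher and 27.4% lower in T against Ctrl. These shares were 12.1% and 11.1% in M against Ctrl, and 14.6% and 10.8% in M against T. The granulocyte gene S100a8 was 8.35-fold higher in T (adjusted p = 8.55e-06) and 31.3-fold higher in M (adjusted p = 2.97e-07) than in Ctrl, and S100a9 was 2.99-fold higher in M (adjusted p = 0.00359). Of the same list, Elane (5.91-fold), Ngp (2.49-fold), Siglecf (2.07-fold) and Mpo (1.79-fold) were lower in T than in Ctrl, all passing. Kit was called lower than in Ctrl in both T and M, where 0 of 3 arrays per group measured it well above background. The fibroblast and pericyte gene Pdgfrb, which no Ctrl array measured well above background, was at least 2.95-fold higher in T, a bound set by the lowest signal measured above background (adjusted p = 3.62e-05). Of its list, Krt5 was 4.18-fold and Col1a2 1.795-fold lower in T than in Ctrl, both passing. The part of these markers in the results was not tested. In bulk RNA, fewer cells of a type and less RNA per cell cannot be told apart.

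Shown here are a probe of Bcl2l1 and a probe of Bcl2l11, the members called in M against Ctrl, because each reaches a functional stretch of its coding region. The Bcl2l1 probe matches mm9 chr2:152655185-152655244 on the minus strand and has 1 reading frame without a stop codon. It runs into the start of the stretch that encodes the BH2 segment of BCL-XL, part of the fold around the groove that receives BH3 helices. The Bcl2l11 probe matches the plus strand of mm9 chromosome 2 between 127972893 and 127983988, across a splice junction, and covers part of the BH3 helix of BIM. It has 2 reading frames without a stop codon, and capitals mark adjacent glycine and aspartate codons in 1 of them.
Bcl2l1: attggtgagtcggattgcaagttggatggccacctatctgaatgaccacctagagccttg
Bcl2l11: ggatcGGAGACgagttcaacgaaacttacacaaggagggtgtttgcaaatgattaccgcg

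Values below are log2 processed signals minus the 75th percentile of each array, so 0 is the level of that percentile and a step of 1 is a doubling. Where a gene had a pair of probes, its brighter probe entered the test over 18594 genes, with Benjamini-Hochberg adjustment over all of them and a threshold of 0.05. In T against Ctrl, 1 member was called higher and 2 lower, against 44.9% of all genes called (17.5% higher, 27.4% lower). In M against Ctrl, 1 member was called higher and 1 lower, against 23.2% of all genes (12.1% higher, 11.1% lower). In M against T, none was called higher and 2 lower, against 25.4% of all genes (14.6% higher, 10.8% lower).

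**Figure D1:**
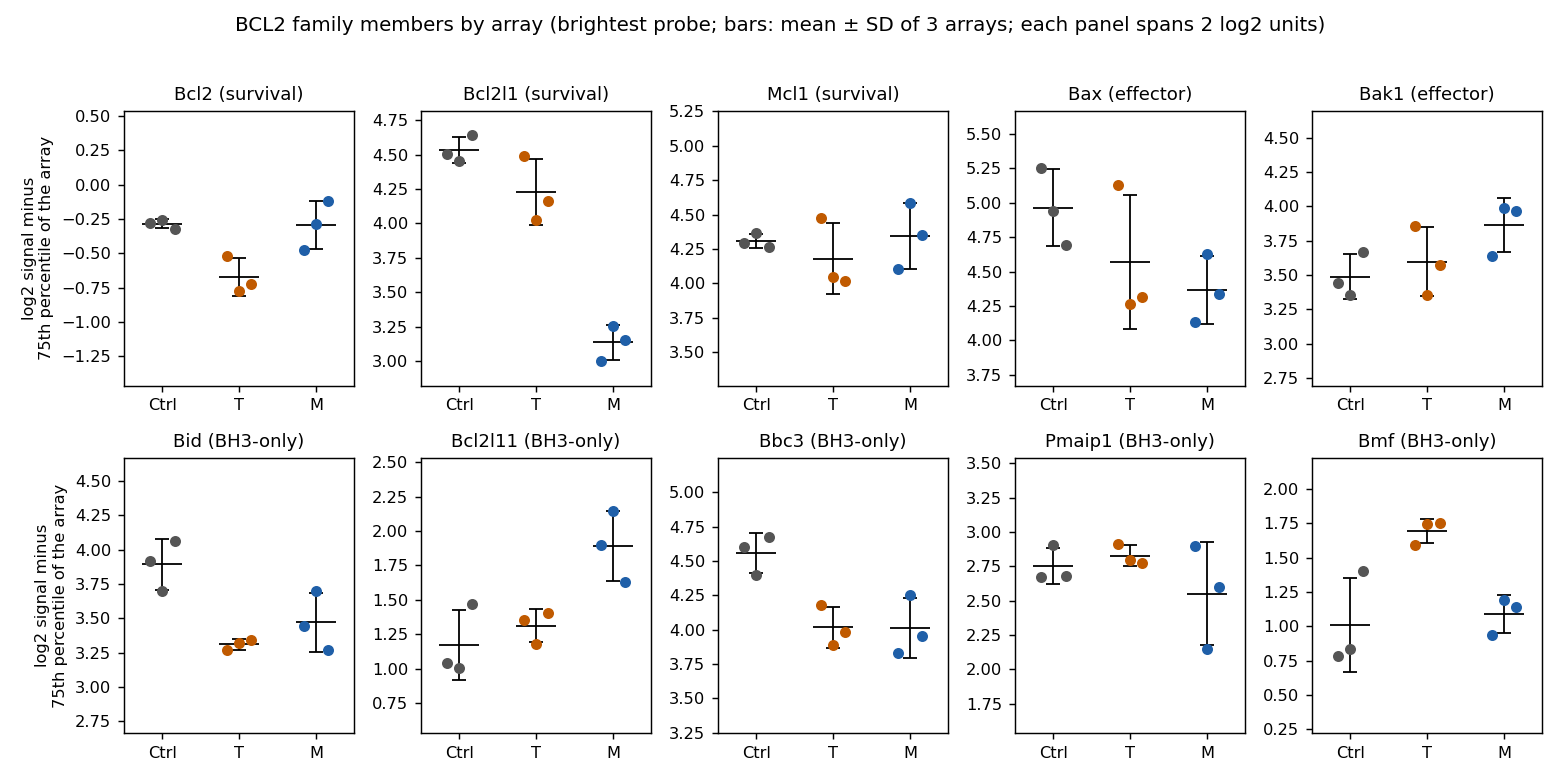
Level of each of the 10 members on every array (y axis: log2 signal minus the 75th percentile of the array; x axis: group), with dots for arrays and bars for the mean ± SD of 3 arrays. Bcl2l1 lies lowest on the 3 M arrays, Bmf highest on the 3 T arrays and Bcl2l11 highest on the 3 M arrays.

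Among the survival genes, Bcl2l1 stood at 4.51, 4.45 and 4.64 in Ctrl, at 4.49, 4.03 and 4.17 in T, and at 3.00, 3.25 and 3.15 in M. Every M array lay below every array of both other groups, while Ctrl and T overlapped. Bcl2l1 fell by 1.40 ± 0.18 (SE, n = 3 per group) on the log2 scale in M against Ctrl (adjusted p = 0.000401). Against T it was 2.14-fold lower in M (log2 difference -1.09 ± 0.18, adjusted p = 0.00153). T against Ctrl gave -0.30 with a 95% interval from -0.69 to 0.09 (adjusted p = 0.181). The call in M against Ctrl held in all 23 alternatives, with log2 differences from -1.56 to -1.10. Without both M1 and M3, which left 1 M array, the call in M against T was lost (log2 difference -0.97).

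The other Bcl2l1 probe, the one printed above, lies 48781 bases from the brighter one at mm9 chr2:152606404-152606463. It read 2.82, 3.17 and 2.97 in Ctrl, 2.60, 2.23 and 2.30 in T, and 1.09, 1.35 and 1.33 in M. Here the 3 groups did not overlap at all, with Ctrl highest and M lowest. In a fit over all tested probes it was lower in M than in Ctrl by a log2 difference of -1.73 ± 0.18 (adjusted p = 0.000212) and lower than in T by -1.12 ± 0.18 (adjusted p = 0.00216). This probe was also called in T against Ctrl (-0.61 ± 0.18, adjusted p = 0.0220), where the brighter probe was not. That last call ended under median scaling (-0.19, adjusted p = 0.466) and without Ctrl2 (adjusted p = 0.0815), T2 (0.0915) or T3 (0.0829).

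Mcl1, the short-lived guardian that binds BAK1, gave different answers on its probes. The brighter probe, at mm9 chr3:95466855-95466914, read 4.29, 4.37 and 4.26 in Ctrl, 4.47, 4.04 and 4.02 in T, and 4.10, 4.58 and 4.35 in M. All groups overlapped, and no comparison passed: T against Ctrl was -0.13 (95% interval -0.55 to 0.30) and M against Ctrl 0.04 (-0.39 to 0.46). The other probe, 1312 bases upstream at mm9 chr3:95465543-95465602, read 2.07, 2.70 and 2.39 in Ctrl, 3.74, 3.55 and 3.67 in T, and 3.00, 3.22 and 3.24 in M. On it the 3 groups did not overlap, with T highest and Ctrl lowest. It was higher in T than in Ctrl by 1.27 ± 0.20 on the log2 scale (adjusted p = 0.00120) and called in all 17 alternatives run for it. M against Ctrl gave 0.77 ± 0.20 (adjusted p = 0.0287), which ended without Ctrl1 (adjusted p = 0.0963), M1 (0.0572), M2 (0.0504) or M3 (0.101). The levels of the pair correlated at r = -0.114 over the 9 arrays, against 0.975 for the Bcl2l1 pair and 0.831 for the Bcl2l11 pair. Which of them follows the Mcl1 transcript was not tested, so no direction is given for the gene.

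**Figure D2:**
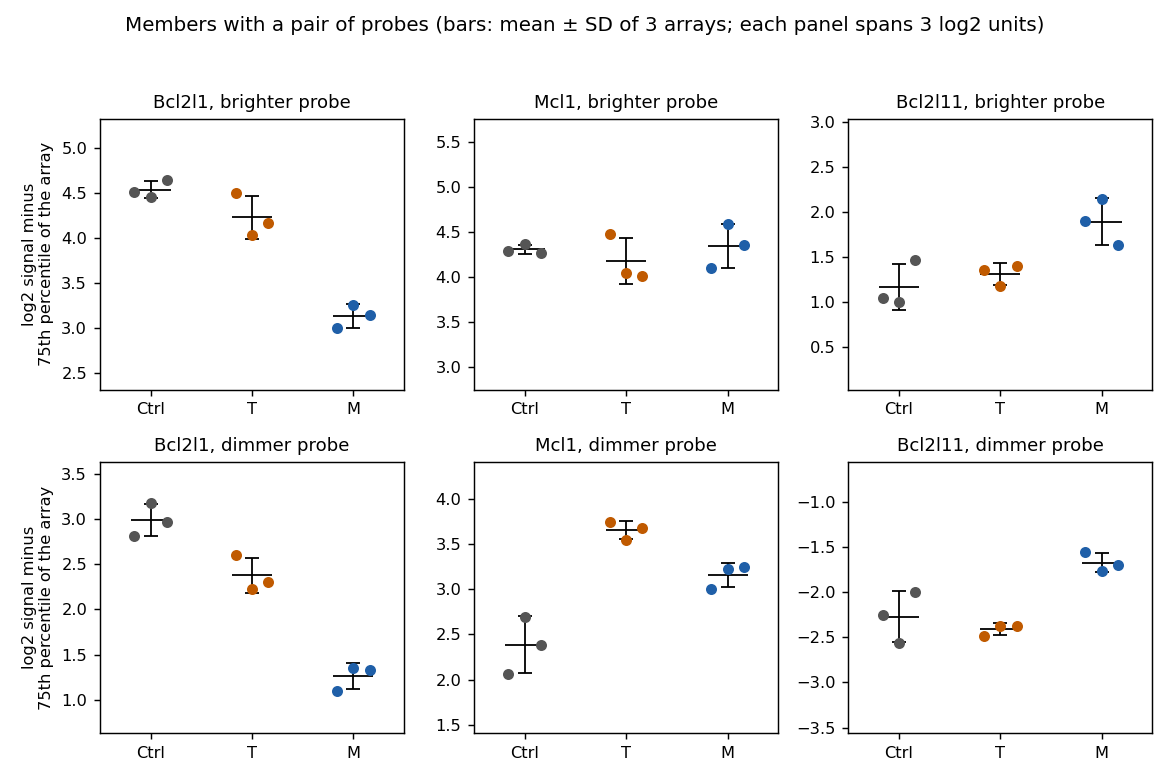
Levels on both probes of Bcl2l1, Mcl1 and Bcl2l11 (y axis: log2 signal minus the 75th percentile of the array; x axis: group; dots for arrays, bars for the mean ± SD of 3 arrays). Both Bcl2l1 probes are lowest in M and both Bcl2l11 probes highest in M, while only the dimmer Mcl1 probe is higher in T (3.55 to 3.74) than in Ctrl (2.07 to 2.70).

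Bcl2, the founding guardian of the family, read -0.28, -0.26 and -0.32 in Ctrl, -0.52, -0.78 and -0.73 in T, and -0.47, -0.29 and -0.12 in M. The T arrays lay below all others, and Ctrl and M overlapped. The difference of T from Ctrl was -0.39 ± 0.16 (95% interval -0.75 to -0.03) and missed the threshold after adjustment (adjusted p = 0.0761). M against Ctrl was -0.01 (95% interval -0.37 to 0.35).

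Neither effector passed in any comparison. Bax, which moves from the cytosol to mitochondria when activated, read 5.25, 4.94 and 4.70 in Ctrl, 5.13, 4.26 and 4.32 in T, and 4.14, 4.63 and 4.33 in M. Its M arrays lay below its Ctrl arrays, but M against Ctrl missed the threshold (-0.60 ± 0.26, 95% interval -1.19 to -0.01, adjusted p = 0.118). T against Ctrl was -0.39, with T1 inside the Ctrl range and T2 and T3 below it (adjusted p = 0.246). Bak1, which resides in the outer membrane, read 3.44, 3.36 and 3.67 in Ctrl, 3.86, 3.36 and 3.57 in T, and 3.64, 3.99 and 3.97 in M. Its groups overlapped in every comparison, and M against Ctrl was 0.38 (95% interval -0.05 to 0.80, adjusted p = 0.165).

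Among the BH3-only genes, Bcl2l11 encodes BIM, which binds all guardians. On its brighter probe, the one printed above, it read 1.04, 1.005 and 1.47 in Ctrl, 1.36, 1.18 and 1.40 in T, and 1.90, 2.15 and 1.63 in M. Every M array lay above every other array, and Ctrl and T overlapped. Bcl2l11 rose in M against Ctrl by 0.72 ± 0.20 on the log2 scale (1.65-fold, adjusted p = 0.0297). T against Ctrl was 0.14 (95% interval -0.30 to 0.58), and M against T was 0.58 ± 0.20, which missed the threshold (adjusted p = 0.0562). The call in M against Ctrl ended in 9 of 23 alternatives. Among them were leaving out Ctrl1 (adjusted p = 0.0969), Ctrl2 (0.106), M1 (0.0835) or M2 (0.0665) and the fit within the slide that Ctrl and M share (0.0718). That fit is the same as the one of only the 2 groups compared, and both count among the 9.

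The other Bcl2l11 probe belongs to a second transcript model, between mm9 positions 127954736 and 127955417 of chromosome 2. It read -2.26, -2.56 and -2.001 in Ctrl, -2.49, -2.37 and -2.37 in T, and -1.56, -1.77 and -1.70 in M. Its M arrays were again the highest of all. In the fit over all tested probes it was higher in M than in Ctrl by 0.60 ± 0.19 (adjusted p = 0.0496) and higher than in T by 0.74 ± 0.19 (adjusted p = 0.0185). The first of these calls ended in 12 of 17 alternatives, with adjusted p up to 0.161 when a single array was left out. The second ended without M1, M3, T1, T2 or T3, with adjusted p up to 0.0614.

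Bid, which caspase-8 cleaves to link death receptors to mitochondria, read 3.91, 3.70 and 4.06 in Ctrl, 3.27, 3.32 and 3.34 in T, and 3.44, 3.70 and 3.27 in M. All T arrays lay below all Ctrl arrays, and M overlapped both. Bid fell by 0.58 ± 0.18 on the log2 scale in T against Ctrl (1.497-fold lower, adjusted p = 0.0222). M against Ctrl was -0.42 (95% interval -0.81 to -0.03, adjusted p = 0.100), and M against T was 0.16 (-0.23 to 0.55). The call in T ended under median scaling (-0.16, adjusted p = 0.595) and without Ctrl1 (0.0559), T1 (0.0547), T2 (0.0673) or T3 (0.0664).

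Bbc3 encodes PUMA, a p53 target that binds all guardians. It read 4.60, 4.40 and 4.68 in Ctrl, 4.18, 3.89 and 3.98 in T, and 3.83, 4.25 and 3.96 in M. Every T and every M array lay below every Ctrl array, and T and M overlapped. Bbc3 fell by 0.54 ± 0.18 on the log2 scale in T against Ctrl (1.45-fold lower, adjusted p = 0.0323). M against Ctrl was of the same size but missed the threshold (-0.54 ± 0.18, adjusted p = 0.0515), and M against T was -0.00 (95% interval -0.40 to 0.39). The call in T ended under median scaling (-0.12, adjusted p = 0.677) and without Ctrl1 (0.0800), Ctrl3 (0.0528), T2 (0.122) or T3 (0.103). With the replicate number as a block the call also ended (adjusted p = 0.0637), which left 1 member called lower in T against Ctrl in place of 2.

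Bmf, a BH3-only gene whose product is held at the cytoskeleton by a dynein light chain, read 0.78, 0.84 and 1.40 in Ctrl, 1.59, 1.74 and 1.75 in T, and 0.94, 1.19 and 1.14 in M. The T arrays lay above all others, and Ctrl and M overlapped. Bmf rose by 0.69 ± 0.20 on the log2 scale in T against Ctrl (1.61-fold, adjusted p = 0.0182). It fell by 0.61 ± 0.20 in M against T (1.52-fold lower, adjusted p = 0.0472), and M against Ctrl was 0.08 (95% interval -0.36 to 0.52). The call in T against Ctrl ended without Ctrl1 (adjusted p = 0.0646), Ctrl2 (0.0676), T2 (0.0644) or T3 (0.0664). The call in M against T ended in 14 of 22 alternatives, including leaving out Ctrl2 or any single M or T array (adjusted p up to 0.144).

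Pmaip1, which encodes NOXA, a p53-responsive BH3-only protein that binds MCL1, read 2.67, 2.91 and 2.68 in Ctrl, 2.91, 2.80 and 2.77 in T, and 2.90, 2.15 and 2.60 in M. All groups overlapped and M2 was the lowest array. T against Ctrl was 0.07 (95% interval -0.38 to 0.53), and M against Ctrl was -0.20 (-0.66 to 0.25).

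**Figure D3:**
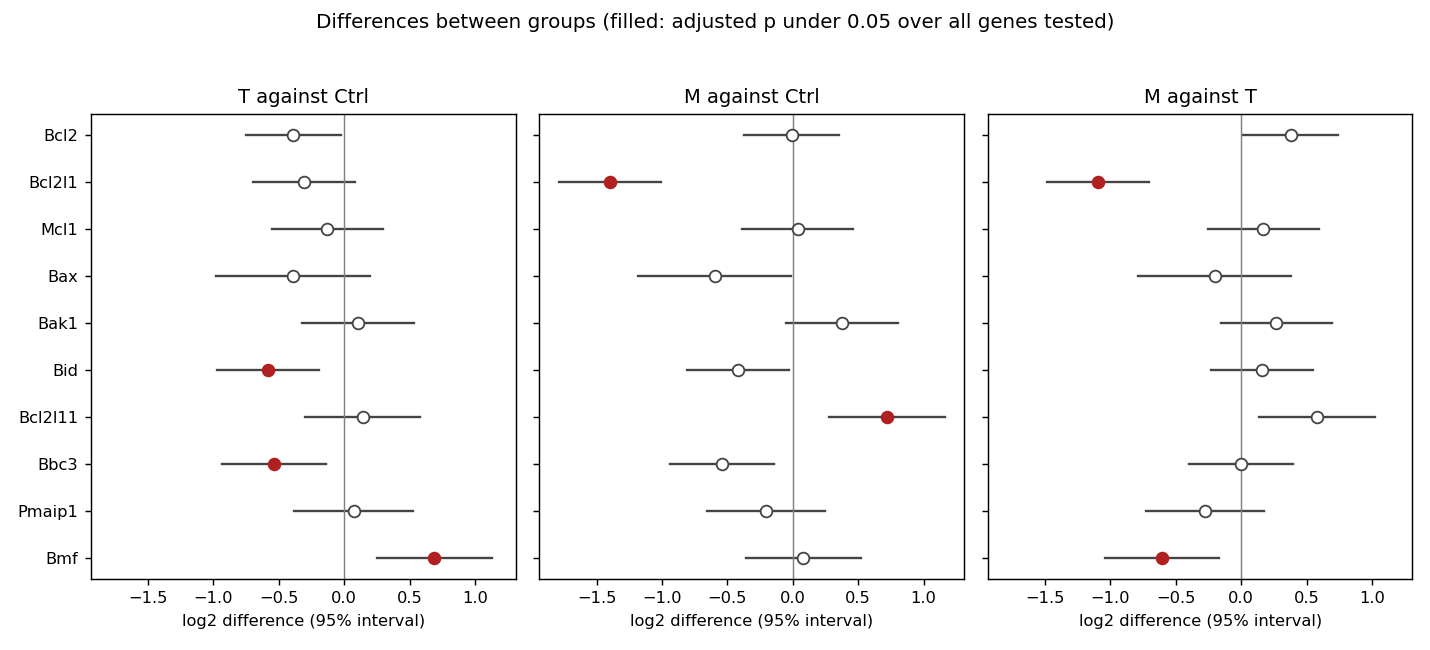
Log2 differences of the 10 members (x axis) with their 95% intervals in T against Ctrl, M against Ctrl and M against T; filled points passed an adjusted p of 0.05 over all genes tested. Bcl2l1 has the largest difference of the members in M against Ctrl (-1.40) and in M against T (-1.09).

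Over all members the median log2 difference was -0.22 in T against Ctrl, -0.11 in M against Ctrl and 0.08 in M against T. The same median over all genes tested was -0.14, -0.10 and 0.11. In each comparison, 4 of the 10 members had arrays without overlap between the groups, against 53.6%, 36.2% and 48.2% of all genes. An F test over the 3 groups passed for 5 members (Bcl2l1, Bcl2l11, Bmf, Bbc3 and Bid) and for 50.8% of all genes. The members' shares were thus near the background. T against Ctrl and M against Ctrl use the same Ctrl arrays, so their values are given side by side and not compared as separate evidence.

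The scaling of the arrays bears on T most. Under median scaling the median of all genes in T against Ctrl moved from -0.14 to 0.28, and under quantile normalization to 0.00. The share of calls that were higher went from 38.95% to 65.76% and 52.43%. In M against Ctrl that share went from 52.27% to 74.26% under median scaling and 66.16% under quantile normalization, and in M against T from 57.55% to 44.83% under median scaling. Under median scaling Bid and Bbc3 stayed lower in T than in Ctrl without passing, Bmf was higher by 1.11, and the uncalled differences of Bcl2 (0.03), Bcl2l1 (0.12) and Bax (0.03) turned positive.

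The genes whose levels ran most like those of the 3 members with the smallest F test p-values are given as a description over the 9 arrays. For Bcl2l1 they were Pacsin1 (Pearson r = 0.987), Rps6kl1 (0.985) and Cdk8 (0.979). For Bcl2l11 they were Sdc1 (0.970), Ttl (0.969) and Zbtb9 (0.965). For Bmf they were Tsacc (0.986), Rab27b (0.984) and Tlnrd1 (0.979). The points share their arrays, slide and group structure.

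Of 16 further BCL2 family genes, 12 were tested. In T against Ctrl 5 rose and none fell (median 0.37), in M against Ctrl 4 rose and none fell (median 0.34), and in M against T 1 rose and 3 fell (median -0.18). Of all genes, 17.5% were called higher and 27.4% lower in T against Ctrl, and 12.1% and 11.1% in M against Ctrl. In M against T these shares were 14.6% and 10.8%. Without both M1 and M3, which left 1 M array, some calls of this list in M against Ctrl and in M against T ended. Bik, a BH3-only gene whose product sits at the endoplasmic reticulum, read -4.41, -4.43 and -4.73 in Ctrl, -1.43, -1.35 and -1.39 in T, and -1.79, -2.40 and -1.75 in M. All T and M arrays lay above all Ctrl arrays. It was 8.78-fold higher in T (adjusted p = 5.19e-06) and 5.84-fold higher in M (adjusted p = 1.66e-05) than in Ctrl, in all alternatives run. Bcl2l15 rose by 1.73 ± 0.22 in T and fell by 1.49 ± 0.22 in M against T on the log2 scale (adjusted p = 0.000300 and 0.000867), and its other probes moved the same way. Bcl2l14 rose by 1.46 ± 0.24 in T and fell by 1.56 ± 0.24 in M against T (adjusted p = 0.00146 and 0.00132). Bok, an effector-like member, was higher in M than in Ctrl (0.88 ± 0.18, adjusted p = 0.00814) and than in T (0.77 ± 0.18, adjusted p = 0.0110). Bcl2a1c was higher in T than in Ctrl (0.91 ± 0.17, adjusted p = 0.00270), in all alternatives run. It was also higher in M than in Ctrl (0.67 ± 0.17, adjusted p = 0.0234), a call that ended without Ctrl1, M1 or M3 (adjusted p up to 0.0887). Its near-identical paralogs can share its probe, so which of them it reads is uncertain. Bnip3l, a mitophagy receptor, was lower in M than in T (-0.85 ± 0.21, adjusted p = 0.0155), with T3 dropped at an outlier spot, and missed the threshold without T1 (adjusted p = 0.102). Its 3 other tested probes were also lower in M than in T (-2.07, -1.41 and -1.15) and higher in T than in Ctrl (0.97, 0.56 and 1.13), all passing, and 2 of them were lower in M than in Ctrl (-1.09 and -0.84).

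Among 13 genes of the apoptosome and the caspases, 12 were tested. In T against Ctrl 4 rose and 2 fell, in M against Ctrl 1 rose and 1 fell, and in M against T 2 rose and 2 fell. Calls over all genes made up 17.5% (higher) and 27.4% (lower) in T against Ctrl. They made up 12.1% and 11.1% in M against Ctrl, and 14.6% and 10.8% in M against T. Apaf1, the scaffold of the apoptosome, rose in T by 1.40 ± 0.29 (adjusted p = 0.00431), Dffb, the caspase-activated nuclease, by 1.26 ± 0.24 (adjusted p = 0.00271), and the initiator Casp9 by 0.70 ± 0.16 (adjusted p = 0.00683). Dffa, the inhibitor of that nuclease, fell in T by 0.94 ± 0.25 (adjusted p = 0.0139), although its other probes gave 0.27 and 0.04 and did not pass. Aifm1, a mitochondrial flavoprotein gene, was higher in M than in T by 0.50 ± 0.16 (adjusted p = 0.0475). Dffb was lower in M than in T by a log2 difference of -2.12 ± 0.24 (adjusted p = 0.000158) and Apaf1 by -0.90 ± 0.29 (adjusted p = 0.0454). In M against Ctrl, Casp6 rose by 0.76 ± 0.19 (adjusted p = 0.0206) and Dffb fell by 0.86 ± 0.24 (adjusted p = 0.0304). The Aifm1 call ended without any one array other than Ctrl3 (adjusted p up to 0.178), the Apaf1 call in M against T without Ctrl3, M2, M3 or any T array (up to 0.146), the Casp6 call without Ctrl1, Ctrl2 or M3 (up to 0.0759), and the Dffb call in M against Ctrl without Ctrl1, Ctrl2, M2 or M3 (up to 0.112).

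Of 12 inhibitors of apoptosis and other caspase brakes, 11 were tested. In T against Ctrl 3 rose and 2 fell, in M against Ctrl 2 rose and none fell, and in M against T 2 rose and none fell. The shares of all genes called were 17.5% higher and 27.4% lower in T against Ctrl. They were 12.1% and 11.1% in M against Ctrl, and 14.6% and 10.8% in M against T. Xiap, the direct caspase inhibitor, rose by 1.51 ± 0.35 in T (adjusted p = 0.00693) and by 1.22 ± 0.35 in M against Ctrl (adjusted p = 0.0334). In T, Naip6 rose by 1.19 ± 0.41 (adjusted p = 0.0378) and Naip2 by 0.88 ± 0.25 (adjusted p = 0.0189), while Htra2, a mitochondrial protease that counters these brakes, fell by 0.78 ± 0.18 (adjusted p = 0.00809) and Birc5 by 0.68 ± 0.20 (adjusted p = 0.0192). The Naip genes are close paralogs and their probes may not separate them. Birc3, a ubiquitin ligase of the TNF receptor complex, was higher in M than in Ctrl by 1.18 ± 0.22 (adjusted p = 0.00494) and than in T by 0.90 ± 0.22 (adjusted p = 0.0142), although its other probe gave 0.32 in M against Ctrl and did not pass (adjusted p = 0.283). That probe gave 1.605 in M against T (adjusted p = 0.000656). In T against Ctrl it gave -1.28 (adjusted p = 0.00179), while the brighter probe gave 0.28 and did not pass. Htra2 was higher in M than in T by 0.88 ± 0.18 (adjusted p = 0.00669). Single arrays ended the call of Xiap in M (Ctrl1, M1 or M3, adjusted p up to 0.116), of Naip6 (Ctrl1, T2 or T3, up to 0.135), of Naip2 (the same arrays, up to 0.0676), of Birc5 (Ctrl1 or T2, up to 0.0695) and of Birc3 in M against T (M3 or T3, up to 0.0555).

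All 13 death receptor and adaptor genes were tested. In T against Ctrl 8 rose and 1 fell (median 0.66), in M against Ctrl 8 rose and none fell (median 0.80), and in M against T 1 rose and 2 fell (median 0.19). Over all genes, calls in T against Ctrl made up 17.5% (higher) and 27.4% (lower), and those in M against Ctrl 12.1% and 11.1%. Those in M against T made up 14.6% and 10.8%. Without both M1 and M3, which left 1 M array, most calls of the list in M against Ctrl and all in M against T ended. Fas, a receptor whose signal can reach mitochondria through BID, read -4.03, -3.42 and -3.13 in Ctrl, -1.36, -0.68 and -0.82 in T, and -1.64, -1.75 and -1.41 in M. All T and M arrays lay above all Ctrl arrays. Fas was 5.96-fold higher in T (adjusted p = 8.33e-05) and 3.80-fold higher in M (adjusted p = 0.000709), in all alternatives run. Traf1 rose in T by 1.69 ± 0.21 (adjusted p = 0.000292), and the kinase gene Ripk1 rose in M by 1.58 ± 0.24 (adjusted p = 0.00141). Tnfrsf1b rose in T by 1.58 ± 0.51 (adjusted p = 0.0298) and in M by 1.77 ± 0.51 (adjusted p = 0.0352), with Ctrl arrays spread from -4.49 to -2.16 and overlapping both groups. Its call in T ended without Ctrl1, Ctrl3 or any T array (adjusted p up to 0.103), and in M without Ctrl1, Ctrl3, T2 or any M array (up to 0.124). Fasl, the ligand, was well above background on 2 of 3 T arrays and fell in T by 1.15 ± 0.37 (adjusted p = 0.0298), a call that ended without T3 or any Ctrl array (up to 0.0693). In M against T, Fasl was higher by 1.20 ± 0.37 (adjusted p = 0.0396), Traf1 lower by a log2 difference of -0.89 ± 0.21 (adjusted p = 0.0126) and Tnfrsf10b lower by -0.76 ± 0.19 (adjusted p = 0.0166). The Fasl call there ended without Ctrl2, T2, T3 or any M array (up to 0.128), and the Tnfrsf10b call without M1, T2 or T3 (up to 0.0634).

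Of 15 genes of the p53 axis outside the members, all tested, 8 rose and 2 fell in T against Ctrl (median 0.55), 2 rose and none fell in M against Ctrl (median -0.13), and none rose and 5 fell in M against T (median -0.55). Beside these, 17.5% of all genes were called higher and 27.4% lower in T against Ctrl. The shares were 12.1% and 11.1% in M against Ctrl, and 14.6% and 10.8% in M against T. Trp53inp1, a p53-induced stress gene, read -2.44, -1.63 and -1.83 in Ctrl, -0.12, 0.12 and 0.18 in T, and -1.79, -3.13 and -2.70 in M. Its T arrays lay above all others. It rose in T by 2.02 ± 0.33 (adjusted p = 0.00133) and was lower in M than in T by a log2 difference of -2.60 ± 0.33 (adjusted p = 0.000351). Mdm2, the ubiquitin ligase for p53, rose in T by 1.88 ± 0.21 (adjusted p = 0.000155) and was lower in M than in T by -1.21 ± 0.21 (adjusted p = 0.00254). Eda2r rose in T by 1.65 ± 0.31 (adjusted p = 0.00283), while Trp73 fell by 0.98 ± 0.26 (adjusted p = 0.0130) and Perp by 0.74 ± 0.24 (adjusted p = 0.0319). The other Trp73 probe gave 0.60 and did not pass (adjusted p = 0.0868). Phlda3, a p53 target that restrains AKT, rose in T by 1.64 ± 0.21 (adjusted p = 0.000394) and in M against Ctrl by 1.09 ± 0.21 (adjusted p = 0.00692). In M against Ctrl Mdm2 also rose, by 0.67 ± 0.21 (adjusted p = 0.0459). Ccng1 was lower in M than in T by -0.88 ± 0.23 (adjusted p = 0.0190). Single arrays ended the call of Trp73 (T3, adjusted p = 0.056), of Perp (Ctrl1, Ctrl2, T1 or T3, up to 0.128), of Ccng1 in M against T (M2, T2 or T3, up to 0.0685) and of Mdm2 in M against Ctrl (any array but Ctrl3, up to 0.142). Set beside these, the p53-responsive members in T were at -0.54 (Bbc3), -0.39 (Bax, not passed) and 0.07 (Pmaip1, not passed).

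**Figure D4:**
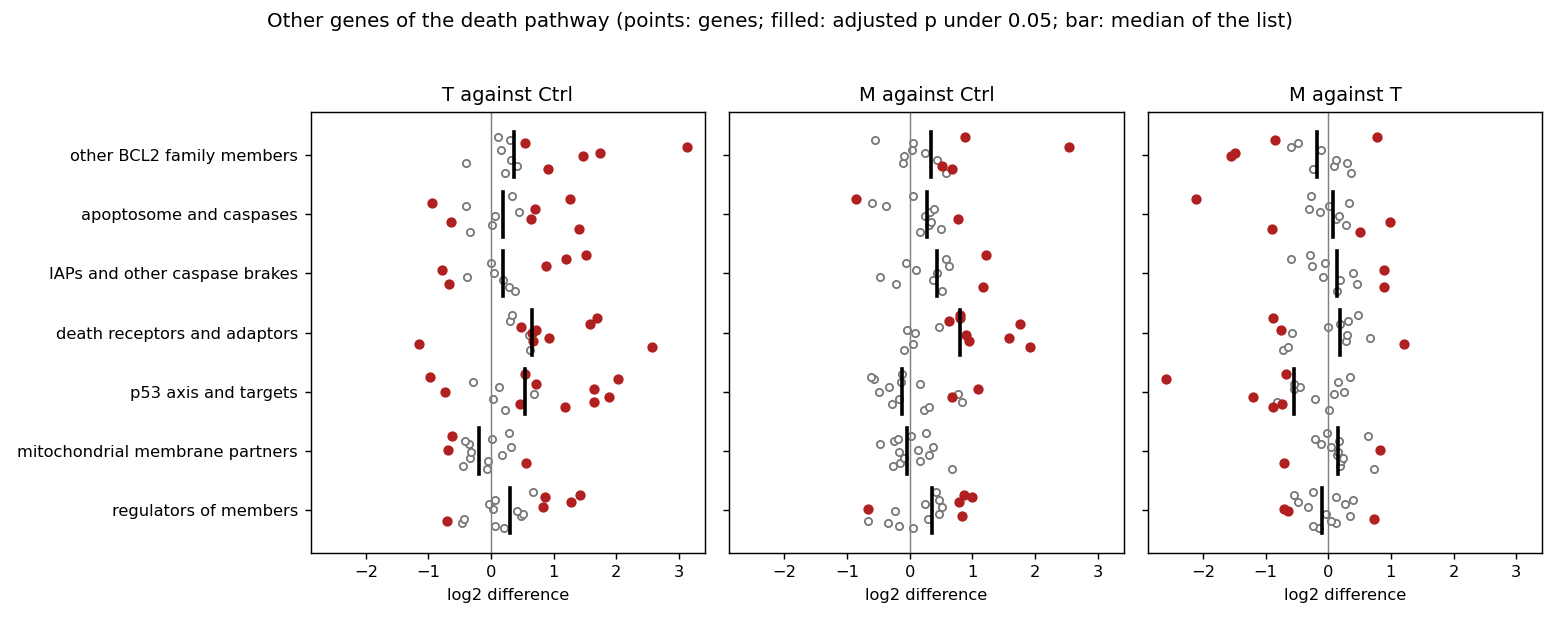
Log2 differences (x axis) of the tested genes of each list (y axis) in the 3 comparisons, with 1 point per gene, filled where the adjusted p was under 0.05, and a bar at the median of the list. The death receptor list has its median at 0.66 in T and 0.80 in M against Ctrl, and the p53 list at 0.55 in T and -0.13 in M.

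Of 14 mitochondrial membrane partners, such as channel and fusion genes, 1 rose and 2 fell in T against Ctrl, none passed in M against Ctrl, and 1 rose and 1 fell in M against T. For all genes the shares were 17.5% higher and 27.4% lower in T against Ctrl. They were 12.1% and 11.1% in M against Ctrl, and 14.6% and 10.8% in M against T. Hk2, the hexokinase that docks on the outer membrane, rose in T by 0.55 ± 0.16 (adjusted p = 0.0200) and was lower in M than in T by a log2 difference of -0.71 ± 0.16 (adjusted p = 0.0104). Opa1, which shapes the cristae, fell in T by 0.69 ± 0.22 (adjusted p = 0.0287) and was higher in M than in T by 0.82 ± 0.22 (adjusted p = 0.0220). Its other probe gave -0.16 and 0.15 and did not pass. Vdac2, a channel that holds BAK, fell in T by 0.62 ± 0.21 (adjusted p = 0.0378), a call that ended with the replicate number as a block (adjusted p = 0.0589) and left 1 gene of the list lower. Single arrays ended the T calls of Hk2 (Ctrl1, Ctrl2 or any T array, adjusted p up to 0.0729), Opa1 (any T array, up to 0.0906) and Vdac2 (Ctrl2, Ctrl3, M3, T2 or T3, up to 0.124), and the Opa1 call in M against T (any M or T array, up to 0.0785).

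All 16 regulators of the members were tested, with 4 higher and 1 lower in T against Ctrl, 4 and 1 in M against Ctrl, and 1 and 2 in M against T. Among all genes, 17.5% were called higher and 27.4% lower in T against Ctrl. These shares were 12.1% and 11.1% in M against Ctrl, and 14.6% and 10.8% in M against T. Trib3, a stress-induced pseudokinase, rose in T by 1.42 ± 0.22 (adjusted p = 0.00106) and in M by 0.86 ± 0.22 (adjusted p = 0.0232). Jun, whose product can drive Bcl2l11, rose in T by 1.27 ± 0.23 (adjusted p = 0.00220). The survival kinase gene Pim3 rose in T by 0.87 ± 0.27 (adjusted p = 0.0262) and in M by 0.99 ± 0.27 (adjusted p = 0.0290). E2f1 rose in M by 0.83 ± 0.19 (adjusted p = 0.0145). Foxo3, a transcription factor known to act on Bcl2l11 and Bbc3, was lower in M than in Ctrl by a log2 difference of -0.67 ± 0.16 (adjusted p = 0.0189) and lower than in T by -0.70 ± 0.16 (adjusted p = 0.0112). Foxo1 was lower in M than in T by -0.64 ± 0.16 (adjusted p = 0.0139). Dynll1, the light chain that holds BIM, fell in T by 0.71 ± 0.22 (adjusted p = 0.0245), and Dynll2, which holds BMF, was higher in M than in T by 0.73 ± 0.19 (adjusted p = 0.0204), with its other probe at 0.22 and not passed. Single arrays ended the calls of Pim3 in T (Ctrl1, Ctrl2, T2 or T3, adjusted p up to 0.0943) and M (Ctrl1, Ctrl2, M1 or M3, up to 0.106), Trib3 in M (Ctrl1, Ctrl2 or M3, up to 0.0913), E2f1 (the same arrays, up to 0.0638), Foxo3 in M against Ctrl (Ctrl2, M1 or M3, up to 0.0757) and against T (T3, up to 0.0532), Foxo1 (M3, T2 or T3, up to 0.0615), Dynll1 (Ctrl3 or T3, up to 0.111) and Dynll2 (M1, M2, T2 or T3, up to 0.0858). Over all 7 lists, 17 of 43 calls in T against Ctrl, 2 of 23 in M against Ctrl and 3 of 23 in M against T held in every alternative. Without both M1 and M3, 1 M array was left, and most of the calls in M against Ctrl and in M against T ended. The spot noise of the arrays left out and the smaller number of arrays cannot be told apart there. Median scaling ended all 10 calls of list genes that fell in T against Ctrl, both that fell in M against Ctrl (Dffb and Foxo3), and those of Bok, Aifm1, Birc3, Opa1, Dynll2 and Zmat3 in M against T.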

How the data were processed

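Total RNA of sorted macrophages was labelled with Cy3 and hybridised to Agilent arrays, 3 per group, per the labels. The authors deposited scanner files, made with Agilent Feature Extraction, version 10.7.3.1 in the submitters' processing notes, whose processed signal intensity is background-subtracted and detrended within each array, per the file headers. The deposited value table mixes columns on a linear scale with columns on a log2 scale, and was used only as an alternative. Its M1 and M2 columns each held the other array's values and its T2 column equalled no array's.

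Control spots and outlier spots were left out and spots of a probe averaged. Log2 intensity minus the 75th percentile of each array was fitted with limma 3.58.1 in R 4.3.3, all 3 groups together, with Benjamini-Hochberg adjustment. Testing required a signal well above background on every array of some group, and the brightest such probe represented its gene. Of 55681 probes, 26762 were named through RefSeq accessions, 6488 kept the array's own name and 22431 had none. Coordinates are those of mm9, per the file headers. The fit was tested on simulated data. The members and lists were chosen with earlier results of these data known. All members are named, and of each list up to 3 genes per direction with the largest differences among those called. One gene that this rule takes is not reported here by name. The labels state no pairing by the replicate numbers in the titles. Deviations from the group means of same-numbered T and Ctrl arrays correlated at 0.55, 0.12 and 0.38. Those of differently numbered T and Ctrl arrays correlated at -0.45 to 0.19. The values overlap, so they do not settle a pairing, and the main fit used none. By the numbers of the scanner files, same-numbered pairs with M ranged from -0.27 to 0.02. With M1 and M2 exchanged, as in the deposited value table, M2 correlated at 0.35 with Ctrl1 and 0.32 with T1. M1 then correlated at 0.04 with Ctrl2 and 0.06 with T2. The numbering of M is thus uncertain, so a pairing with M is not settled and was not used in the main fit. The replicate block used the numbers of the scanner files. Alternatives covered scaling, background, filters, probe choice, weights, array subsets and a replicate block. For M against Ctrl, the fit of only the 2 groups compared and that within their shared slide use the same arrays. They are the same fit, though counted separately among the 23.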

Additional observations from a re-analysis of the deposited data

How the results depend on the processing

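Counts of members called higher in T against Ctrl (1) became 2 with the mean over a gene's probes and 0 with the deposited table, and ranged from 0 to 1 without single arrays. Counts lower (2) became 0 under median scaling and with the deposited table, 5 with array weights, 3 with the mean over a gene's probes and 1 with the replicate block, and ranged from 0 to 2 without single arrays. In M against Ctrl, the count higher (1) became 2 under quantile normalization and array weights. It became 0 with normexp, the deposited table, only the 2 groups compared and the fit within the shared slide. Without single arrays it ranged from 0 to 1. Leaving out both M1 and M3, a setting chosen after seeing the data, left 1 M array, and no counts are given for it. The count lower (1) became 4 with array weights and 2 under quantile normalization, the filter on all 9 arrays, the mean over probes and a variance trend with a robust prior, with 1 to 2 without single arrays. In M against T, the count higher (0) became 2 with array weights and 1 under quantile normalization, the mean over probes, a variance trend with a robust prior and only the 2 groups compared, with 0 to 1 without single arrays. The count lower (2) became 1 under median scaling, normexp, no filter, all probes in 1 fit, the deposited table and the replicate block. Without single arrays it ranged from 1 to 2. The causes were not tested. With the mean over probes Mcl1 in T against Ctrl reversed to 0.571 (adjusted p = 0.0225), since its probes disagree.

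The replicate block ended the calls of Bbc3 in T against Ctrl (adjusted p = 0.0637) and Bmf in M against T (0.0572), and no other call of a member's brighter probe. Without Ctrl3, Bcl2l11 passed in M against T (adjusted p = 0.0279). The slide could not be fitted as a block for comparisons with T, which had a slide of its own. With 3 arrays a group, differences of the size of Bid, Bbc3, Bmf and Bcl2l11 lie near the threshold, and each of these calls ended on leaving out some single array. The call of Bcl2l1 in M against Ctrl held in all 23 alternatives.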
